A study of Homo sapiens with 18 samples.

Results

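The subject of these data is a group of 9 human histone variant genes whose mRNAs carry a poly(A) tail. They are H2AFX, H2AFZ, H2AFV, H2AFJ, H2AFY, H2AFY2, H3F3A, H3F3B and H1FX, which current nomenclature calls H2AX, H2AZ1, H2AZ2, H2AJ, MACROH2A1, MACROH2A2, H3-3A, H3-3B and H1-10. They were taken by name from 26469 genes named in any table of the series, by a rule that uses no measured value, although earlier results of these data were known when the group was proposed. RNA was sequenced from C4-2B, a castration-resistant human prostate cancer cell line of WT genotype per the labels, after selection of poly(A) RNA. At 2 days the cells had received DMSO as vehicle or 0.1 µM VIC-1911, an inhibitor of the mitotic kinase AURKA. At 7 days they had received vehicle, 0.1 µM VIC-1911, 1 µM olaparib, an inhibitor of PARP enzymes, or both drugs together (the combination). Each of the 6 groups had 3 libraries, 18 in all, and the cells are a single line without stromal or immune partners.

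Most histone proteins are made in S phase from clustered genes whose mRNAs end in a stem-loop in place of a poly(A) tail. Most variant histones come from genes outside those clusters, whose mRNAs are polyadenylated, and many are made in any phase of the cycle. H2AFX is known to make a stem-loop mRNA in S phase as well as a polyadenylated one, so libraries of poly(A) RNA cover a part of its transcripts. H2A.X is the histone that kinases phosphorylate around DNA breaks, H2A.Z marks promoters, macroH2A is found in repressed chromatin, H3.3 replaces H3 at active genes and telomeres, and H1.10 is a linker histone that binds the DNA between nucleosomes.

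Of the 9 genes, 8 had counts and all 8 passed the filter of at least 10 counts in at least 3 libraries at both time points, with no count under 46 in any library. H3F3A had no line in the count tables and is listed at 0 FPKM (fragments per length of the gene and per size of the library) in all 18 libraries. The name H3F3AP4, a pseudogene named for it, had between 150 and 1010 counts per library, and whether these reads came from H3F3A was not tested. Reads of such near-identical copies cannot be assigned with certainty, so no level of H3F3A is given and the H3F3B share of H3.3 transcripts could not be computed. Total counts were 3245273 to 7184420 per library at 2 days and 4967931 to 19684208 at 7 days. All 9 luminal prostate markers were detected (summed level 2472 to 4425 FPKM). Fibroblast markers summed to 1.12 to 2.27 FPKM and leukocyte markers to at most 0.408 FPKM, with DCN and CD3E at 0. By their library names, vehicle and VIC-1911 of 7 days belong to one run of numbers, and both groups that received olaparib belong to a later run, so a difference between those runs and an effect of olaparib cannot be told apart. In bulk RNA a change in the share of cells with a transcript and a change in RNA per cell cannot be told apart either. The labels do not say whether the 3 libraries of a group came from separate cultures, so the p-values measure the spread between these libraries, which may be technical.

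The promoters of 3 members are printed because H2AFX and H2AFZ had the largest rises under VIC-1911 at 7 days and H3F3B passed the test in no comparison. Each sequence is the 250 bases before the transcription start given by RefSeq (GRCh38.p14), written 5′ to 3′ on the strand of the gene, and capitals mark CCAAT, its reverse complement ATTGG, and TATAAA.
H2AFX, chr11:119095466-119095715, minus strand: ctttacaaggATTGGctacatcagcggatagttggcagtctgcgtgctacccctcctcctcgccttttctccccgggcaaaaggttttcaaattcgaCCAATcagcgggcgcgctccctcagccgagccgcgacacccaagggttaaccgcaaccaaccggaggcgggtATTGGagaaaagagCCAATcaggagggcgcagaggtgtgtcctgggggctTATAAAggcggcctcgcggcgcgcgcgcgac
H2AFZ, chr4:99950276-99950525, minus strand: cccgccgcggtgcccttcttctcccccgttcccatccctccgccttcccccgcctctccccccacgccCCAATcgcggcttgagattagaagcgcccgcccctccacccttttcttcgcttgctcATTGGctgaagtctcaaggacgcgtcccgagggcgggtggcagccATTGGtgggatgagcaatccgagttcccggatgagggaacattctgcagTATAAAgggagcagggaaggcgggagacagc
H3F3B, chr17:75779780-75780029, minus strand: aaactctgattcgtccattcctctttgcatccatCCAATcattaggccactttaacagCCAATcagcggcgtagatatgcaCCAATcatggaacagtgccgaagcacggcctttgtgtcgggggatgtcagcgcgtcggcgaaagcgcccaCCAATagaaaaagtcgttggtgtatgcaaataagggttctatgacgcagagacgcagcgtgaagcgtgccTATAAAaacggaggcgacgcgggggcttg

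All 3 windows hold a TATAAA, beginning 31 bases before the start in H2AFX and H2AFZ and 29 bases before it in H3F3B. CCAAT occurs 4 times in the window of H2AFX on either strand, 3 times in that of H2AFZ and 4 times in that of H3F3B. In the RefSeq table, searched on both strands, TATAAA occurs in 10.7% of 35116 promoter windows of this length, at least 3 CCAAT in 2.93% and at least 4 in 0.874%. A window was found for all 9 members. Those of H2AFV (4 matches) and H2AFJ (3 matches) also hold at least 3 CCAAT, those of H2AFY2 and H1FX none, and that of H1FX holds a TATAAA. The letters TTTGAA, part of the cell cycle genes homology region, occur once in the H2AFX window, on the opposite strand and 164 bases before the start, and in no other printed window (13.3% of all windows). The E2F-like letters TTCCCGCC are in none of the 3 printed windows and in 2.72% of all windows. These are letter matches and not measured binding sites.

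In the annotation H2AFX, H2AFJ and H1FX have a single exon, and H2AFZ and H2AFV have 5 exons each, H2AFY and H2AFY2 have 9 each and H3F3A and H3F3B have 4 each. The RefSeq span of DPAGT1 covers the whole of H2AFX on chromosome 11 (119093874 to 119095465) on the same strand. The log2 fold changes of DPAGT1 against vehicle at 7 days were -0.23 with VIC-1911, -0.40 with olaparib and -0.55 with the combination, and those of H2AFX were above 0 in all 3. How this overlap affected the counts of H2AFX was not tested. H2AFY overlaps PITX1-AS1 by 10300 bases, H2AFY2 overlaps AIFM2 by 12 bases and H1FX overlaps its antisense gene by 16 bases. The strand setting of the counting was not given in the sources used here, so reads in these overlaps are uncertain. AIFM2 passed the test against vehicle in none of the 3 comparisons at 7 days, and H1FX-AS1 had log2 fold changes of -0.28, 0.16 and 0.30 for VIC-1911, olaparib and the combination. The values of PITX1-AS1 were not read, so how its overlap affected the counts of H2AFY was not tested.

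Levels per length spanned from H2AFZ to H2AFY2 in every group. In the vehicle libraries of 7 days the order of mean FPKM was H2AFZ (226 ± 22.3, SD, n = 3), H1FX (153 ± 12.5), H2AFY (94.1 ± 3.28), H3F3B (84.6 ± 0.706), H2AFJ (52.5 ± 4.72), H2AFX (49.3 ± 6.25), H2AFV (20.6 ± 0.668) and H2AFY2 (5.61 ± 0.139). H2AFJ and H2AFX were neighbors whose libraries overlapped, and no other neighbors in this order did. With VIC-1911 at 7 days H2AFX moved up to a place beside H2AFY, at 125 ± 4.60 FPKM against 124 ± 4.75 FPKM, and the libraries of these 2 genes overlapped. The order of H2AFZ and H1FX as first and second and of H2AFV and H2AFY2 as last was the same in all 6 groups. Mean levels of vehicle libraries were higher at 2 days than at 7 days for all 8 genes, but the tables of the 2 time points were made separately and this difference was not tested.

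**Figure D1:**
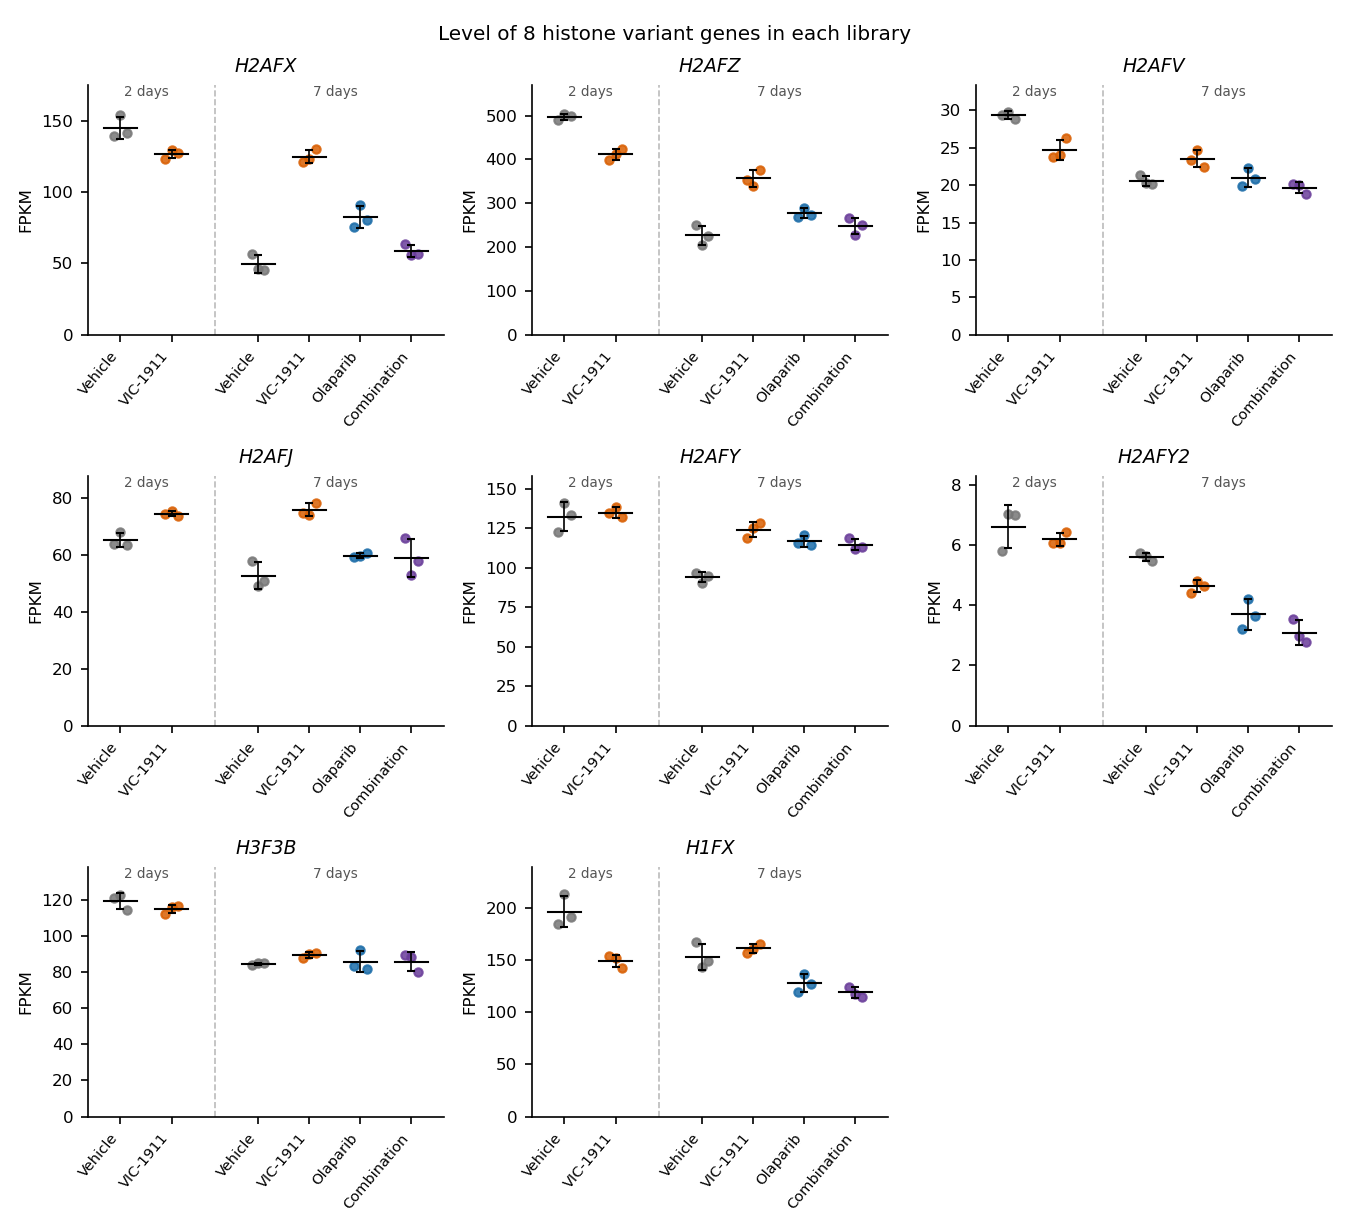
FPKM of each of the 8 genes with counts (vertical axis, from 0) in each of 18 libraries by group, with points for libraries, horizontal lines for the mean and bars for the SD (n = 3). H2AFX with VIC-1911 at 7 days sits at 121 to 130.2 FPKM against 45.7 to 56.6 FPKM in vehicle, and H1FX sits at 115 to 136 FPKM in the 6 libraries with olaparib.

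VIC-1911 lowered 4 of the 8 genes modestly at 2 days and raised 1. The 4 were the linker gene H1FX, the H2A.Z genes H2AFZ and H2AFV, and H2AFX, and the gene that rose was H2AFJ. Over all 12241 genes tested, 7.19% were called lower and 7.5% higher (edgeR's quasi-likelihood test, adjusted p under 0.05 by Benjamini-Hochberg), against 4 and 1 of these 8. The median log2 fold change was -0.11 over the members and 0.00 over all genes. At 7 days 5 rose (H2AFX, H2AFZ, H2AFJ, H2AFY and H2AFV) and 1 fell (H2AFY2), and H2AFX, H2AFZ and H2AFV were the genes called lower at 2 days and higher at 7 days, with backgrounds of 26.6% higher and 25.8% lower among 14409 genes. At 2-fold or more H2AFX alone passed, against 3.46% of all genes. The backgrounds at 7 days are high, so a share of 5 in 8 is read against 26.6% of all genes.

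H2AFX encodes H2A.X. Its level at 2 days was 139.7, 154 and 142 FPKM in the vehicle libraries and 124, 129.8 and 127 FPKM with VIC-1911. At 7 days it was 56.6, 45.8 and 45.7 FPKM in vehicle, 121, 124 and 130.2 FPKM with VIC-1911, 75.7, 90.8 and 80.6 FPKM with olaparib and 63.6, 55.8 and 56.6 FPKM with the combination. All 3 VIC-1911 libraries of 7 days lay above all others of that time point, the olaparib libraries lay between them and the rest, and the combination libraries overlapped vehicle. The log2 fold change for VIC-1911 was -0.19 (SE 0.05, adjusted p = 9.67e-03, edgeR) at 2 days. At 7 days it was 1.29 (SE 0.07, adjusted p = 5.62e-16), a 2.45-fold rise, 0.73 for olaparib (SE 0.07, adjusted p = 2.81e-10) and 0.24 for the combination (SE 0.07, adjusted p = 3.34e-03). The combination was 0.48 below olaparib on the log2 scale (log2 fold change -0.48, SE 0.07, adjusted p = 7.51e-06) and -1.05 against VIC-1911 (SE 0.06, adjusted p = 9.81e-14). Without vehicle replicate 2 the adjusted p of the combination against vehicle was 6.27e-02. The call at 2 days was lost without vehicle replicate 2 (adjusted p = 8.79e-02) and without VIC-1911 replicate 1 (adjusted p = 5.70e-02).

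H2AFZ and H2AFV encode the H2A.Z proteins H2A.Z.1 and H2A.Z.2, which SRCAP and EP400 complexes put into nucleosomes. H2AFZ was 490.3, 503 and 499 FPKM in vehicle and 399, 413 and 423 FPKM with VIC-1911 at 2 days. At 7 days it was 249, 205 and 226 FPKM in vehicle, 354, 339 and 377 FPKM with VIC-1911, 269, 289.7 and 273 FPKM with olaparib and 266, 228 and 250.1 FPKM with the combination. The VIC-1911 libraries were below vehicle at 2 days and above it at 7 days without overlap, and the combination overlapped vehicle. The log2 fold changes of H2AFZ were -0.26 (SE 0.04, adjusted p = 5.99e-05) for VIC-1911 at 2 days, 0.61 (SE 0.06, adjusted p = 3.54e-10) at 7 days, 0.28 (SE 0.06, adjusted p = 1.93e-04) for olaparib and 0.13 (SE 0.06, adjusted p = 5.65e-02) for the combination. H2AFV was far less abundant, at 20.1 to 21.3 FPKM in vehicle of 7 days, 22.5 to 24.8 FPKM with VIC-1911, 19.9 to 22.4 FPKM with olaparib and 18.8 to 20.1 FPKM with the combination. At 2 days it was 28.9 to 29.9 FPKM in vehicle and 23.8 to 26.3 FPKM with VIC-1911. The VIC-1911 log2 fold changes of H2AFV were -0.25 (SE 0.05, adjusted p = 1.18e-03) at 2 days and 0.15 (SE 0.05, adjusted p = 1.77e-02) at 7 days, and the second was lost without vehicle replicate 2, vehicle replicate 3 or VIC-1911 replicate 2. For olaparib and the combination H2AFV gave 0.02 (95% interval -0.09 to 0.12) and -0.07 (95% interval -0.18 to 0.03), which did not pass.

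H2AFZ made up most of the H2A.Z transcripts per length. Its share of H2AFZ plus H2AFV at 7 days was 92.1%, 91.0% and 91.8% in vehicle, 93.8%, 93.2% and 94.4% with VIC-1911, 93.1%, 92.8% and 92.9% with olaparib and 93.0%, 91.9% and 93.0% with the combination. The VIC-1911 libraries and the olaparib libraries lay above vehicle without overlap, by 2.15 and 1.32 percentage points of the mean, and the combination overlapped vehicle. The two-sided exact permutation p was 0.1 for VIC-1911 and for olaparib, the smallest that 3 against 3 libraries allow, and 0.2 for the combination, so none could reach 0.05. At 2 days the shares were 94.4% ± 0.101 in vehicle and 94.3% ± 0.172 with VIC-1911 (SD, n = 3, exact permutation p = 0.5).

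H2AFJ encodes H2A.J, an H2A variant known from senescent fibroblasts and luminal epithelium. It was the one member that rose with VIC-1911 at 2 days, from 63.8, 68.0 and 63.4 FPKM to 74.1, 75.4 and 73.7 FPKM. At 7 days it was 57.9, 49.1 and 50.6 FPKM in vehicle, 74.8, 73.9 and 78.2 FPKM with VIC-1911, 59.0, 59.4 and 60.5 FPKM with olaparib and 65.8, 52.9 and 57.7 FPKM with the combination. VIC-1911 libraries stood above vehicle at both times without overlap, whereas combination libraries overlapped vehicle. Log2 fold changes were 0.21 (SE 0.05, adjusted p = 2.59e-03) for VIC-1911 at 2 days, 0.48 (SE 0.06, adjusted p = 6.22e-08) at 7 days, 0.17 (SE 0.06, adjusted p = 2.08e-02) for olaparib and 0.16 (SE 0.06, adjusted p = 2.13e-02) for the combination. The olaparib call was lost without vehicle replicate 2 (log2 fold change 0.10, adjusted p = 0.204), vehicle replicate 3 or olaparib replicate 3. The combination call was lost without vehicle replicate 2 (log2 fold change 0.10), vehicle replicate 3 or combination replicate 1, where the log2 fold change was 0.06 (adjusted p = 0.348).

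H2AFY and H2AFY2 encode macroH2A1 and macroH2A2, H2A variants with a large non-histone domain. H2AFY was 96.9, 90.5 and 94.98 FPKM in vehicle of 7 days, 119, 125 and 128 FPKM with VIC-1911, 115, 121 and 114 FPKM with olaparib and 119, 112 and 113 FPKM with the combination. All 9 drug-treated libraries lay above the 3 vehicle libraries. Its log2 fold changes at 7 days were 0.35 (SE 0.04, adjusted p = 7.03e-08) for VIC-1911, 0.29 (SE 0.04, adjusted p = 1.74e-06) for olaparib and 0.28 (SE 0.04, adjusted p = 2.46e-06) for the combination. H2AFY2 went the other way: it was 5.73, 5.64 and 5.46 FPKM in vehicle, 4.43, 4.83 and 4.64 FPKM with VIC-1911, 3.22, 4.23 and 3.64 FPKM with olaparib and 3.54, 2.97 and 2.77 FPKM with the combination. Every drug-treated library lay below every vehicle library, and the olaparib and combination libraries overlapped each other. The log2 fold changes of H2AFY2 were -0.32 (SE 0.11, adjusted p = 1.22e-02), -0.58 (SE 0.11, adjusted p = 4.90e-05) and -0.86 (SE 0.11, adjusted p = 1.27e-07), the last a 1.81-fold fall. H2AFY2 rests on few reads, 46 to 279 counts per library at 7 days, and its SE is the largest among the members. At 2 days neither macroH2A gene passed the test with VIC-1911, at log2 fold changes of 0.03 (95% interval -0.07 to 0.13) for H2AFY and 0.00 (95% interval -0.26 to 0.27) for H2AFY2.

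The share of H2AFY in the macroH2A pair was 94.4% ± 0.219 in vehicle of 7 days, 96.4% ± 0.112 with VIC-1911, 96.9% ± 0.335 with olaparib and 97.4% ± 0.261 with the combination (SD, n = 3). No treated library overlapped vehicle, and the exact permutation p was 0.1 in each of the 3 comparisons, the smallest possible. At 2 days it was 95.2% ± 0.242 in vehicle and 95.6% ± 0.232 with VIC-1911 (exact permutation p = 0.2).

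H3F3B encodes the histone H3.3 and passed the test in none of the 9 comparisons. It was 83.8, 84.9 and 85.1 FPKM in vehicle of 7 days, 87.8, 90.2 and 90.5 FPKM with VIC-1911, 83.2, 92.4 and 81.8 FPKM with olaparib and 89.4, 88.3 and 80.1 FPKM with the combination. The VIC-1911 libraries lay above the vehicle libraries on this scale, while the log2 fold change from the counts was 0.04 with a 95% interval of -0.06 to 0.13. For olaparib it was 0.01 (95% interval -0.09 to 0.10), for the combination 0.02 (95% interval -0.08 to 0.11) and for VIC-1911 at 2 days -0.03 (95% interval -0.12 to 0.07). All 4 of these intervals lay between -0.12 and 0.13 on the log2 scale. H3F3AP4, the pseudogene that carried counts, had log2 fold changes of 0.02 for VIC-1911, 0.31 for olaparib (adjusted p = 1.98e-04) and 0.51 for the combination (adjusted p = 7.19e-08) at 7 days.

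The linker histone gene H1FX fell in the olaparib libraries and in the combination libraries. H1FX encodes H1.10, and at 7 days it was 167, 143 and 149 FPKM in vehicle, 157, 161 and 165 FPKM with VIC-1911, 119.6, 136 and 127 FPKM with olaparib and 124, 117 and 115 FPKM with the combination. The 6 libraries with olaparib lay below the 6 without it, and these 2 sets are also the 2 runs of library numbers. Its log2 fold changes were 0.03 (95% interval -0.08 to 0.13) for VIC-1911, -0.27 (SE 0.05, adjusted p = 5.12e-05) for olaparib and -0.37 (SE 0.05, adjusted p = 4.30e-07) for the combination. Within the second run, the combination against olaparib was -0.10 (95% interval -0.20 to 0.01). At 2 days H1FX was 185, 213 and 191 FPKM in vehicle and 153, 151 and 142 FPKM with VIC-1911, all 3 below vehicle. That log2 fold change was -0.39 (SE 0.05, adjusted p = 6.77e-07).

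With olaparib 4 members rose (H2AFX, H2AFZ, H2AFY and H2AFJ) and 2 fell (H2AFY2 and H1FX), against 28.1% of all genes called higher and 25.9% lower. With the combination 3 rose (H2AFX, H2AFY and H2AFJ) and 2 fell (the same genes as with olaparib), against 28.6% higher and 28.0% lower. The share called higher with the combination, 3 of 8, is not far from the background, and without vehicle replicate 2 the number called in either direction was 3 in place of 5. The 3 comparisons at 7 days share the 3 vehicle libraries, so their values are set side by side and their likeness is no separate result.

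**Figure D2:**
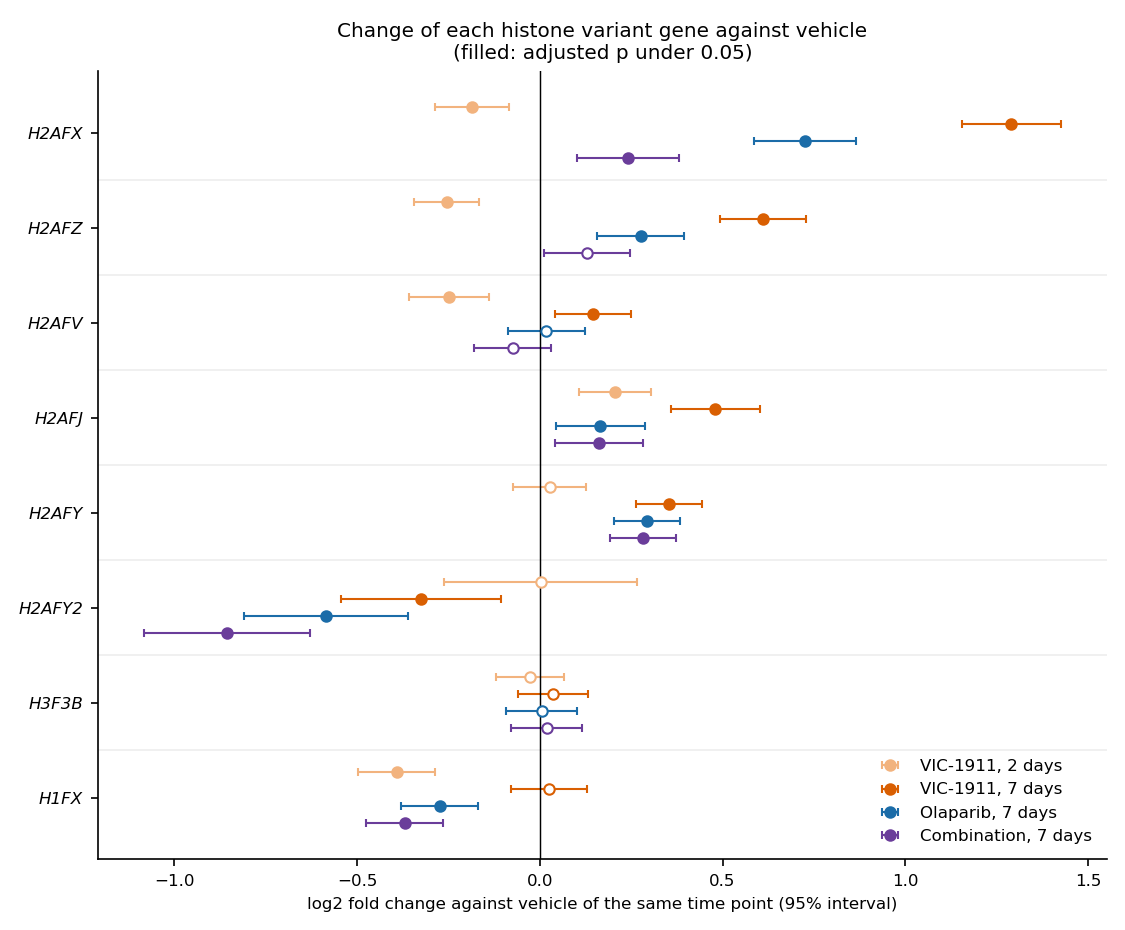
Log2 fold change of each gene against vehicle of the same time point (horizontal axis). Bars are 95% intervals derived from the F statistic of the edgeR test, and points are filled where the adjusted p was under 0.05. H2AFX reaches 1.29 with VIC-1911 at 7 days, H2AFY2 reaches -0.86 with the combination, and the 4 values of H3F3B lie near 0.

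The next comparison asks whether VIC-1911 acted alike with and without olaparib. The interaction term is the log2 fold change of the combination against olaparib less that of VIC-1911 against vehicle, and each of the 2 differences lies within a run of library numbers. It was below 0 and called for 5 members and above 0 for none, against 22.9% and 21.0% of all genes. H2AFX had the largest, at -1.77 (SE 0.09, adjusted p = 2.08e-15, edgeR), since VIC-1911 went with a rise of 1.29 alone and with a change of -0.48 on top of olaparib. The interaction was -0.76 for H2AFZ (SE 0.08, adjusted p = 8.27e-09), -0.48 for H2AFJ (SE 0.08, adjusted p = 2.20e-05), -0.37 for H2AFY (SE 0.06, adjusted p = 1.65e-05) and -0.24 for H2AFV (SE 0.07, adjusted p = 8.43e-03). It did not pass for H1FX (-0.12, 95% interval -0.27 to 0.03), H3F3B (-0.02, 95% interval -0.16 to 0.11) or H2AFY2 (0.05, 95% interval -0.27 to 0.38). The interval of H2AFY2 is wide, and an interaction as large as that of H2AFV lies inside it.

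**Figure D3:**
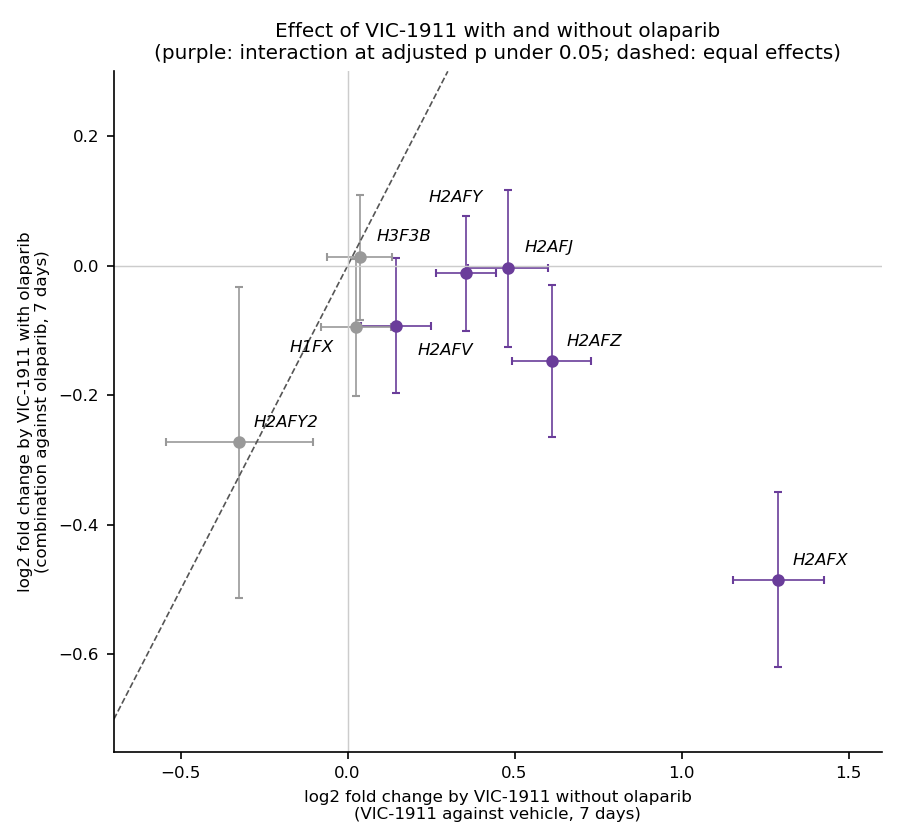
Log2 fold change of each gene by VIC-1911 without olaparib (horizontal axis) and with olaparib (vertical axis) at 7 days, with 95% intervals, the dashed line marking equal effects. The axes are scaled differently, and H2AFX lies farthest from the line, at 1.29 and -0.48.

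Between the treated groups, the combination was lower than olaparib for H2AFX alone, with 0 members higher (backgrounds 6.95% lower and 4.55% higher). Against VIC-1911 the combination was lower for 6 members and higher for none, with backgrounds of 22.2% and 20.7%. The 6 were H2AFX (-1.05), H2AFY2 (-0.53), H2AFZ (-0.48), H1FX (-0.40), H2AFJ (-0.32) and H2AFV (-0.22), given as log2 fold changes. Olaparib against VIC-1911 was lower for 4 members and higher for none, with backgrounds of 12.3% and 11.1%. Those were H2AFX (-0.56), H2AFZ (-0.33), H2AFJ (-0.31) and H1FX (-0.30). The last 2 comparisons cross the runs of library numbers.

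The effect of VIC-1911 at 7 days less that at 2 days was above 0 and called for 6 members and below 0 for none, against 14.6% and 14.2% of 13832 genes. The difference in log2 fold change was 1.46 for H2AFX (SE 0.08, adjusted p = 1.75e-19), 0.85 for H2AFZ (SE 0.07, adjusted p = 1.22e-13), 0.40 for H1FX and 0.38 for H2AFV. It was 0.31 for H2AFY and 0.26 for H2AFJ. For H1FX it compares a fall at 2 days with a value near 0 at 7 days, and for H2AFX, H2AFZ and H2AFV a fall with a rise, each against vehicle. The mean level of H2AFX with VIC-1911 was 127 FPKM at 2 days and 125 FPKM at 7 days, beside 145 and 49.3 FPKM in vehicle. That of H2AFZ was 412 and 357 FPKM, beside 498 and 226 FPKM, and that of H2AFV 24.7 and 23.6 FPKM, beside 29.4 and 20.6 FPKM. Levels were not tested between the times. The difference in log2 fold change did not pass for H3F3B (0.05, 95% interval -0.08 to 0.17) or H2AFY2 (-0.35, 95% interval -0.68 to -0.02, adjusted p = 0.113). The 2 time points were separate sets of libraries, each with its own vehicle.

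Genes of the cell cycle moved with several members. The 10 proliferation markers, such as MKI67, CDK1 and PCNA, summed to 425 to 438 FPKM in vehicle and 364 to 377 FPKM with VIC-1911 at 2 days. At 7 days they summed to 113 to 143 FPKM in vehicle, 310.0 to 323 FPKM with VIC-1911, 215 to 246 FPKM with olaparib and 159.7 to 168 FPKM with the combination. With VIC-1911 8 of the 10 fell at 2 days and all 10 rose at 7 days (median log2 fold change 1.29), and all 10 rose with olaparib (0.75). Over all genes 7.19% fell at 2 days and 26.6% and 28.1% rose at 7 days. With the combination 5 rose, among them CDK1 (1.22) and PCNA (0.78), and 1 fell, MKI67 (-0.62), for a median of 0.17. Their part in the values of H2AFX and H2AFZ was not tested. For each member the 2 genes with the most similar log2 CPM (counts relative to the library total) over the 12 libraries of 7 days were found, as a description over libraries that share groups and runs. H2AFX was most like TUBA1B (r = 0.996) and DEPDC1B (0.995), H2AFZ most like CENPH (0.981) and TROAP (0.980), and H2AFV most like RBBP7 (0.920) and HMGB2 (0.917). H2AFY was closest to PFN1 (0.992) and PHB (0.991), H2AFJ to IRAK1 (0.975) and UQCRFS1 (0.973), and H2AFY2 to SLC25A33 (0.977) and HES6 (0.974). H1FX was closest to SREBF1 (0.967) and ORAI1 (0.964), and H3F3B to ZNF607 (0.847) and MEA1 (0.775).

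Genes that handle these histones were read from lists, whose counts at 7 days are set beside the shares of all genes called higher (26.6% with VIC-1911, 28.1% with olaparib and 28.6% with the combination) and lower (25.8%, 25.9% and 28.0%). Replication-coupled assembly, in which CAF-1 and its partners load H3 and H4 behind the fork, had 6 of 6 genes higher with VIC-1911 and with olaparib at 7 days and 4 of 6 with the combination, among them MCM2 (0.40), which is also a proliferation marker, and NASP (0.30). Of the 7 genes of H3.3 deposition, 3 rose with VIC-1911 at 7 days, 2 with olaparib and 2 with the combination, namely HIRA (0.17) and DAXX (0.15), and none fell, and these numbers of rises are near the shares over all genes. Of the 12 genes of H2A.Z exchange, 3 rose and 1 fell with VIC-1911 at 7 days, 2 rose and 2 fell with olaparib, and 2 rose and 4 fell with the combination. The genes not called numbered 8, 8 and 6, and the shares that rose did not exceed those over all genes. RUVBL1 (0.22) and RUVBL2 (0.18), helicases of the exchange complexes, rose with the combination, and ANP32E (-0.76), a chaperone that removes H2A.Z, and DMAP1 (-0.40) fell. Of the 6 chaperones of H2A and H2B, 5 rose and 0 fell with VIC-1911 at 7 days, and 4 rose and 1 fell with olaparib. With the combination 4 rose, among them NAP1L4 (0.66) and NCL (0.37), and 2 fell, NAP1L1 (-0.64) and SSRP1 (-0.29).

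The H2A.X kinases and readers numbered 8. With VIC-1911 at 7 days 5 rose and 2 fell, and with olaparib 5 rose and 3 fell. Over all genes 26.6% and 28.1% rose and 25.8% and 25.9% fell. With the combination 1 rose, RNF168 (0.20), a ubiquitin ligase at breaks, and 3 fell, among them TP53BP1 (-0.33) and BAZ1B (-0.29). Over all genes 28.6% rose and 28.0% fell with the combination, and the numbers in this list are not far from those shares. MDC1, which binds phosphorylated H2A.X and was singled out after its values were seen, had log2 fold changes of 1.18 with VIC-1911, 0.63 with olaparib and 0.09 with the combination (adjusted p = 0.247), beside 1.29, 0.73 and 0.24 for H2AFX. It does not stand for its list, whose medians were 0.22, 0.21 and -0.01. With VIC-1911 the 8 genes ran from -0.38 to 1.18. CENPA, the centromeric H3 variant, was one of 2 other variant genes tested of 10 listed, at 1.22 with VIC-1911, 0.11 with olaparib and -0.52 with the combination. Of 3 loading factors all 3 rose with VIC-1911 at 7 days and with olaparib. With the combination 1 rose, HJURP (0.58), and 0 fell, near the 28.6% of all genes called higher. Of 6 genes for the processing of stem-loop histone mRNA, 2 rose and 0 fell with VIC-1911 at 7 days and with olaparib. With the combination 2 rose, SLBP (0.32) and LSM10 (0.18), and 1 fell, LSM11 (-0.70). The numbers of rises are near the shares over all genes (26.6%, 28.1% and 28.6%).

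The clustered histone genes, which mostly lack a poly(A) tail, numbered 62 in the count tables, of which 22 were tested at 2 days and 35 at 7 days. At 2 days 13 rose with VIC-1911 and none fell (median 0.66), against 7.5% and 7.19% of all genes. Of the 8 polyadenylated members 4 fell and 1, H2AFJ, rose, and the difference between the 2 groups of genes was not tested. At 7 days 21 rose and 3 fell with VIC-1911 (median 0.88), 17 rose and 3 fell with olaparib (0.62) and 19 rose and 1 fell with the combination (0.89), against 26.6%, 28.1% and 28.6% of all genes higher. With the combination the members' median was 0.07. In poly(A) libraries these counts cover tailed or carried-over transcripts only, and several clustered genes are near copies of each other, so their values are uncertain.

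**Figure D4:**
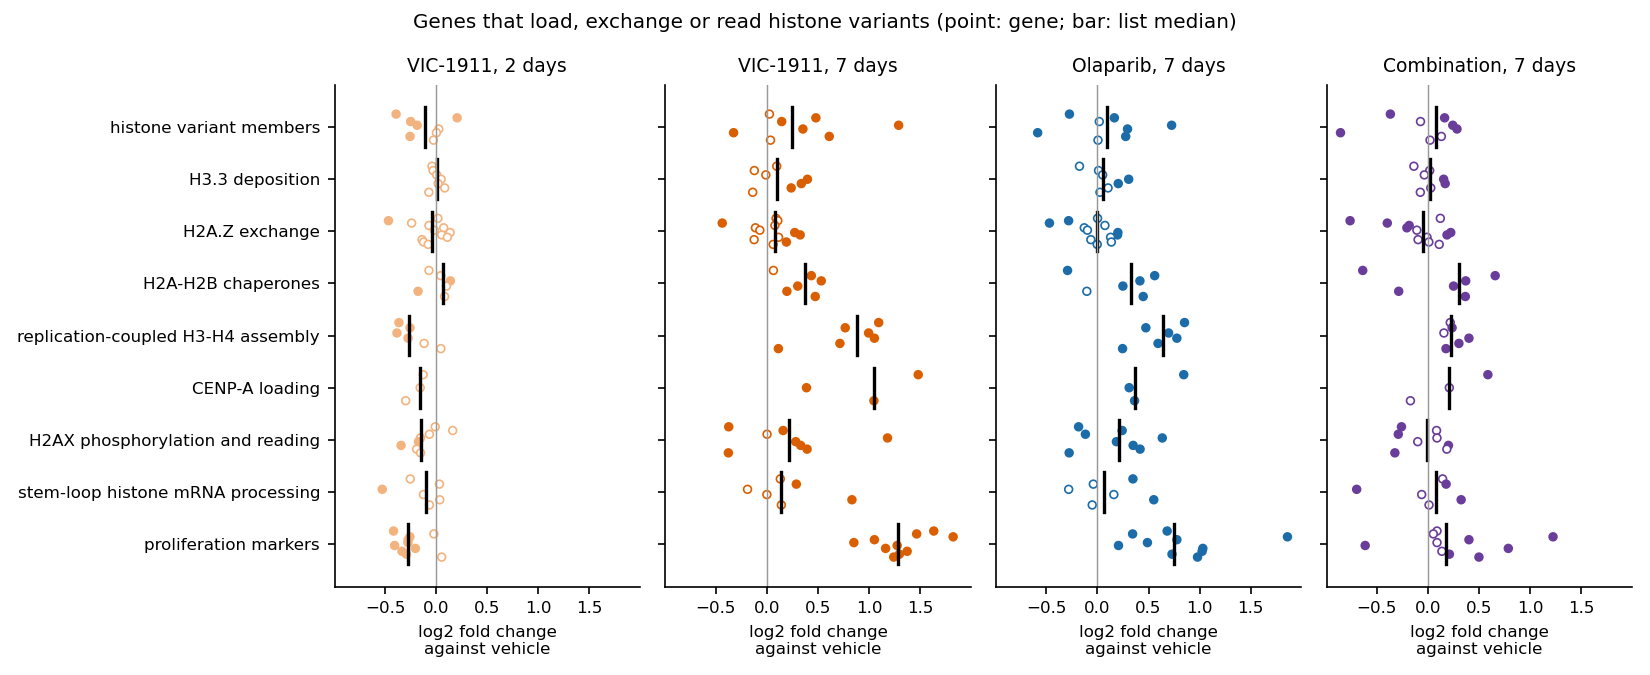
Log2 fold change against vehicle (horizontal axis) of each tested gene of the histone variant group and of 8 lists, in 4 comparisons, filled where the adjusted p was under 0.05, with a bar for the list median. The proliferation markers have a median of 1.29 with VIC-1911 at 7 days and 0.17 with the combination, and the H3.3 deposition genes stay within 0.40 of 0 in all 4.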

How the data were processed

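Poly(A) RNA of 18 C4-2B libraries was analysed, 3 in each of 6 groups taken from the sample titles. Per the labels and the methods of the study, the authors aligned reads to hg38 with STAR (2.6.0 in the submitters' processing notes) and deposited raw counts per gene, without normalization, and FPKM values, in one table of each per time point. All 36 measurement columns were used. Counts were fitted with edgeR 4.0.16 in R 4.3.3 (TMM, glmQLFit, glmQLFTest), with one fit of the 6 libraries of 2 days, one of the 12 of 7 days and one of the 12 vehicle and VIC-1911 libraries, and a gene was tested if 3 or more libraries of the fit had 10 or more counts of it. Benjamini-Hochberg adjustment ran over every gene tested, with a call at an adjusted p under 0.05. An error is the SE of the log2 fold change, taken as its absolute value divided by the square root of the F statistic of the edgeR test. Intervals are at 95% and were made from this SE with the t distribution. Pair shares were taken from FPKM and compared by two-sided exact permutation tests. At 2 days the ratio of FPKM to counts of the 8 members with counts was 0.964 to 1.03 times that of the median gene, allowing for gene length as the 7-day tables give it. Total counts were 3245273 to 19684208 per library. The biological coefficient of variation was 3.44% at 2 days and 4.43% at 7 days. No 2 libraries of a group agreed within sampling noise (lowest chi-square per degree of freedom 1.26). Spreadsheet dates stood in place of 28 gene names in either count table, with up to 0.193% of the counts, and these stayed in the fits unnamed.

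Items withheld from this work, among them 1 further gene of the group, are not reported here. The members and the gene lists were chosen with earlier results of these data known. Named are all members, from each list up to 2 genes called higher and 2 called lower by adjusted p in the combination against vehicle, the 2 genes most like each member (mean of at least 1 FPKM) and genes overlapping a member. MDC1 was named after its values were seen. Alternatives were DESeq2 1.42.0, upper-quartile and library-size scaling, no filter on counts, limma 3.58.1 on log2(FPKM + 1) and log2(FPKM + 0.1), the replicate number as a block, the compared groups alone, and each library left out. The code was tested on simulated data. Positions and promoters are from RefSeq GRCh38.p14.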

Additional observations from a re-analysis of the deposited data

Results flagged for a closer look

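The results below are those in which the effect of VIC-1911 differed between 2 settings by a test of the difference itself (edgeR's quasi-likelihood test, Benjamini-Hochberg adjusted over all genes tested). Both differences contain VIC-1911 against vehicle at 7 days, from the same libraries, so a gene found in both is no separate result. Between cells with and without olaparib at 7 days, the log2 effect of VIC-1911 differed by -1.77 for H2AFX, -0.76 for H2AFZ, -0.48 for H2AFJ, -0.37 for H2AFY and -0.24 for H2AFV. For H2AFX the effect was 1.29 without olaparib and -0.48 with it, and for H2AFJ and H2AFY the effect with olaparib was 0.00 and -0.01.

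Between 7 days and 2 days the log2 effect of VIC-1911 differed by 1.46 for H2AFX, 0.85 for H2AFZ, 0.40 for H1FX, 0.38 for H2AFV, 0.31 for H2AFY and 0.26 for H2AFJ. Against the vehicle of the same time point, H2AFX, H2AFZ and H2AFV were called lower at 2 days and higher at 7 days, and H2AFJ was called higher at both. The H2AFX call at 2 days was lost without vehicle replicate 2 or VIC-1911 replicate 1. The H2AFV call at 7 days was lost without vehicle replicate 2, vehicle replicate 3 or VIC-1911 replicate 2.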

How the results depend on the processing

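Of 59 results for single members, 44 were called. Over 654 alternative values of these 44 results, 640 kept direction and call, 14 kept the direction but lost the call, in 5 results, and 0 changed sign. Uncalled results between treated groups are left out of these numbers. Of the other uncalled results, 2 passed in at least 1 alternative. H2AFZ in the combination against vehicle passed with upper-quartile scaling (0.15), library size alone (0.18), no filter on counts (0.13) and the replicate block (0.13). With a library left out it ranged from 0.043 to 0.192, and it passed without vehicle replicate 1 (0.192) and without combination replicate 2 (0.186). H1FX passed in the interaction without vehicle replicate 1 (-0.17). H2AFJ in the combination against vehicle lost its call in limma at either pseudocount (0.16 and 0.16). The cause of these changes was not tested.

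The number of members called stayed within 1.5 times the reported number under every alternative in 7 of the 9 comparisons. In the combination against vehicle it was 5, and 3 to 6 with a library left out, the 3 without vehicle replicate 2. In the combination against olaparib it was 2 with no filter on counts and 2 with the replicate number as a block, against 1, and it was 1 to 2 with a library left out. Deviations of same-numbered libraries correlated at -0.034 to 0.0991, and those of differently numbered libraries at -0.072 to 0.0908. With 3 libraries per group these values do not settle whether the libraries were paired by number. With the block the count was 6 in place of 5 in the combination against vehicle, and it was the same in the other 7 comparisons.

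Signs changed in uncalled results near 0. H2AFY2 with VIC-1911 at 2 days was -0.018 with upper-quartile scaling, -0.011 with library size alone and -0.079 and -0.090 in limma with pseudocounts of 1 and 0.1. H3F3B with olaparib was -0.0045 in DESeq2 and -0.0069 with the compared groups alone, and its interaction was 0.010 with upper-quartile scaling. With a library left out, VIC-1911 at 2 days ranged from -0.022 to 0.069 for H2AFY and from -0.047 to 0.059 for H2AFY2, and VIC-1911 at 7 days from -0.040 to 0.076 for H1FX. Olaparib ranged from -0.025 to 0.044 for H2AFV and from -0.049 to 0.042 for H3F3B, and the combination from -0.021 to 0.064 for H3F3B. The interaction ranged from -0.052 to 0.156 for H2AFY2 and from -0.060 to 0.031 for H3F3B. The difference in the H2AFZ share at 2 days ranged from -0.158 to 0.011 percentage points.

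H2AFY2 had the lowest counts of the members tested, 46 to 279 per library at 7 days.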
